A study of Mus musculus with 26 samples.

Results

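The genes described here encode 57 core proteins of the mouse spliceosome. They are the rows of the raw count table whose Ensembl ID carries 1 of 57 listed symbols in the GENCODE vM21 annotation, and they make up 57 of 55401 rows. All 57 passed the filter on low counts in every comparison. The rule uses no measured value, but the members were chosen with earlier results of these data known.

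The spliceosome removes introns from nuclear transcripts. It is built anew on each intron from small nuclear ribonucleoproteins (snRNPs), particles in which a small nuclear RNA carries a shared ring of Sm proteins, or of LSm proteins in the case of U6, together with proteins of its own. U1 and U2 mark the ends of the intron, the tri-snRNP of U4, U6 and U5 joins them, and the Prp19-related complex and a set of RNA helicases then remodel the particle so that it can cut and join. Fully grown oocytes are transcriptionally silent and store such mRNAs, and transcription from the embryo's genome begins in the 1-cell stage.

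RNA was counted in 26 libraries in 5 groups. The c-Myc inhibitor series held 7 libraries of embryos given 10058-F4, a thiazolidinone that keeps the transcription factor c-Myc from pairing with Max, and 7 libraries of control embryos. The alpha-amanitin series held 4 libraries of embryos given alpha-amanitin, a toxin that blocks RNA polymerase II, 4 of control embryos and 4 of MII oocytes, the unfertilised eggs halted in the second meiotic metaphase. Embryos were 1-cell embryos labelled as 10 h old, of the F2 cross B6D2F1xB6D2F1 made by in vitro fertilisation. The oocytes were B6D2F1, labelled as 0 h. Eggs came from superovulated 8-week-old females, and the labels name no engineered allele. The c-Myc inhibitor was added 2 h after sperm and eggs were mixed and alpha-amanitin, at 100 µg/ml, 1 h after mixing, each for 10 h. The labels state no concentration for 10058-F4. The protocol speaks of embryos lysed as single cells, without stating how many entered a library, and names no donor or batch, so that n counts libraries, and a p-value measures how libraries scatter, which may be technical.

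Library totals were 20566278 to 27266040 counts in the c-Myc inhibitor series and 5371602 to 31540627 in the alpha-amanitin series, where alpha-amanitin replicate 3 was the shallowest. The biological coefficient of variation, the spread between libraries beyond counting error, was 0.554 across the c-Myc inhibitor libraries and 1.12 across the alpha-amanitin ones. Levels are given as CPM, in which a library's counts are divided by its total, with totals scaled by the TMM method over the 26 libraries. They are shares of the RNA counted, so a change in 1 mRNA and a change in the total RNA of an embryo cannot be told apart. All 10 oocyte markers, such as Gdf9 and Zp3, had counts in every group, while 4 of 10 sperm markers (Gapdhs, Smcp, Tnp1 and Tnp2) and the 4 haemoglobin genes of the 6 blood markers were at 0 in all 26 libraries. Of the other sperm markers, Odf2 was the highest and Prm2 had 5.89 to 10.9 CPM in the group means, oocytes included, and the blood markers Alas2 and Ptprc averaged at most 1.60 CPM. The 12 cumulus cell markers summed to 14.8 to 22.7 CPM in the group means.

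Of the 57 spliceosome genes, 44 had at least 1 count in all 26 libraries. The gene with the fewest was Lsm4, of the ring on U6, with counts in 18. Together they summed to 7259 ± 488 CPM in c-Myc inhibitor embryos and 8089 ± 467 in their controls (SD, n = 7 each). The sums were 6767 ± 306 CPM in alpha-amanitin embryos, 6977 ± 195 in their controls and 7067 ± 468 in MII oocytes (SD, n = 4 each). The complex as a whole thus took 0.690 to 0.795% of all counts in the group means. Where 44 genes had at least 10 CPM in every group, their median coefficient of variation was 16.8% in c-Myc inhibitor embryos, 14.0% in their controls, 23.9% in alpha-amanitin embryos, 23.8% in their controls and 17.9% in oocytes. Differences in the alpha-amanitin series were therefore measured against a wider spread.

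Levels of different genes were compared per length, as TPM from merged exon lengths, within a group. The highest in oocytes was Crnkl1, a repeat protein that scaffolds the Prp19-related complex (chromosome 2, 145917479 to 145935014, GRCm38), with 684 ± 95.8 TPM (SD, n = 4), and it ranked first of the 57 in all 5 groups. Sart3, which helps to reform the U4/U6 snRNP after splicing, followed with 260 ± 56.7 TPM. Prpf8, a U5 snRNP protein that is the largest of the spliceosome and holds its catalytic RNA (chromosome 11, 75486816 to 75509449), had 224 ± 25.4 TPM. Bud31 and Snrpd1, next in that order with 212 ± 49.8 and 209 ± 53.3 TPM, did not differ from Prpf8 beyond their spread. Prpf8 stood at place 3 in oocytes, but at place 17 in c-Myc inhibitor embryos, 26 in their controls, 17 in alpha-amanitin embryos and 32 in their controls. The lowest levels in oocytes were those of Snrpg, Prpf4 and Lsm8, with 7.73, 3.35 and 1.54 TPM. Within 1 ring the members differed widely: oocyte TPM means of the Sm genes ran from 7.73 for Snrpg to 209 for Snrpd1. These levels depend on the exon lengths used, and Sm genes can share reads with near-identical processed copies. The part of either was not tested.

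**Figure D1:**
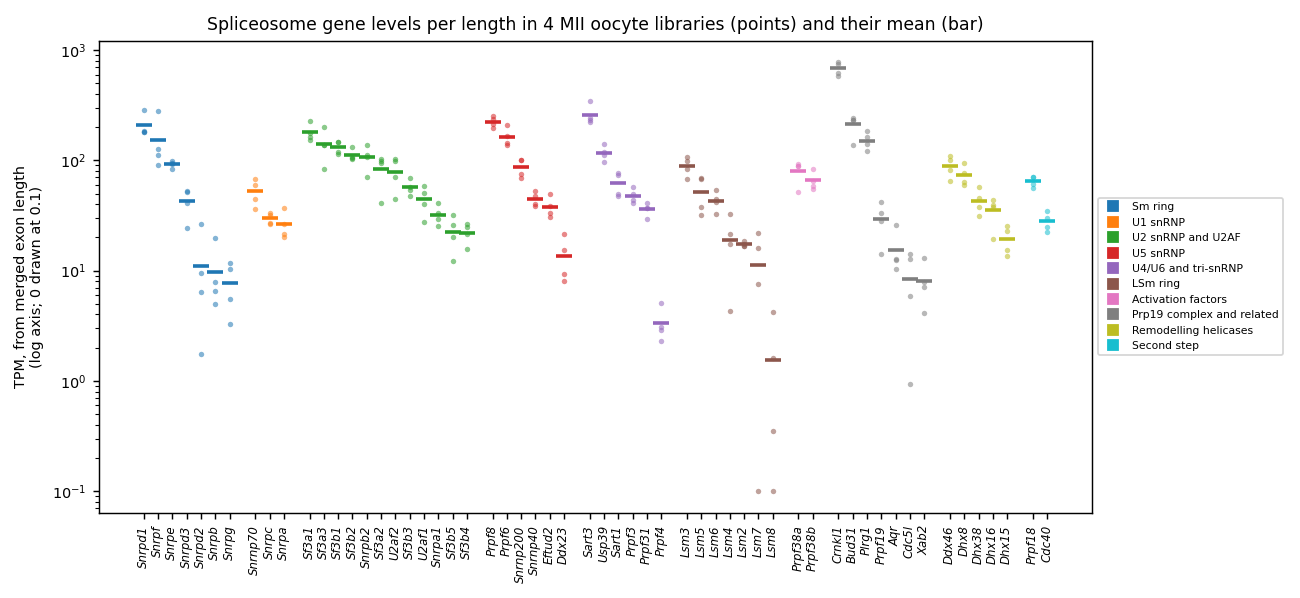
Level of each of the 57 spliceosome genes in the 4 MII oocyte libraries, as TPM on a log axis (points, with a level of 0 drawn at 0.1), and the mean (bar), grouped by role. Crnkl1 stands highest with a mean of 684 TPM and Lsm8 lowest with 1.54 TPM.

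c-Myc with Max binds the E-box, whose full form is CACGTG and reads the same on both strands. Promoter windows from RefSeq (GRCm38.p6; 250 bases before to 50 after a start) were found for 44 of the 57 genes, in 52 windows, and 4 windows, of Prpf3 and Snrpa, held this motif. That is 7.69% of the windows (exact binomial 95% interval 2.14 to 18.5%), beside 7.15% of all 32851 windows of the table. The interval takes windows as independent, which they are not, since 2 windows hold the same Prpf3 site. Counted by gene, 2 of 44 held the motif, beside 2187 of 27025. The sites are shown with 11 bases on either side, 5′ to 3′ on the gene's strand and with the motif in capitals, because these are the 2 of the 44 genes with a full E-box. The Prpf3 site lies at chr3:95855857-95855884 and the Snrpa sites at chr7:27196328-27196355, chr7:27196287-27196314 and chr7:27195813-27195840, all on the minus strand.
Prpf3: ccttccgtagtCACGTGccgtagggacc
Snrpa, 73 bases before a start: ctttcccatccCACGTGatagaactcgc
Snrpa, 32 bases before the same start: ctcttgaaggtCACGTGatactggcgga
Snrpa, 69 bases before the other start: cgcctttcgcgCACGTGgactaatggga
Prpf8, which had the lowest adjusted p of the 57 genes under the c-Myc inhibitor, has no CACGTG in its window. Its 250 bases before the start are at chr11:75486527-75486776 on the plus strand.
Prpf8: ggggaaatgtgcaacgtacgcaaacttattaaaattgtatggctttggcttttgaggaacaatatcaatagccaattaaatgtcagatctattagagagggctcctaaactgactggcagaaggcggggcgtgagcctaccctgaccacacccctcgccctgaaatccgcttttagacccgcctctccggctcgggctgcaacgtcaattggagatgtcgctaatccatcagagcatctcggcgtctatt
A match or its absence describes the letters of these windows and nothing about binding.

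The first comparison asks what the c-Myc inhibitor did. The 2 called rises were U5 snRNP genes: Prpf8 and the GTPase Eftud2 were higher in c-Myc inhibitor embryos than in their controls. The U5 genes did not all move this way: of 6, 4 lay above 0 and 2 below, with log2 fold changes from -0.27 to 0.64. The falls were spread over other steps: the U2 proteins Sf3a3 and Sf3b4, the U4/U6 protein Prpf3, the activation factors Prpf38a and Prpf38b, the scaffold Crnkl1 and the helicase Ddx46. In all, 2 of 57 spliceosome genes rose and 7 fell by edgeR's quasi-likelihood test with Benjamini-Hochberg adjustment over 13003 genes (3.51 and 12.3%), where 10.9% of all genes tested were called, 6.82% higher and 4.08% lower. Changes were small, with called fold changes between 0.605 and 1.56. The members' median log2 fold change was -0.07, beside -0.00049 for all genes tested, and 39 of 57 members lay below 0.

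In the U5 snRNP, Prpf8 had 182 to 298 CPM (median 208) in c-Myc inhibitor embryos and 116 to 176 (median 145) in controls. The 7 treated libraries all lay above the 7 controls. Prpf8 rose 1.56-fold, to 225 ± 45.7 CPM against 145 ± 21.4 (SD, n = 7 each; log2 fold change 0.64, SE 0.12, edgeR adjusted p = 0.000571). Eftud2, which drives rearrangement of the particle by splitting GTP, had 88.1 to 149 CPM (median 99.7) against 58.4 to 104 (median 74.2), with overlap. It rose by 0.41 on the log2 scale, as are the changes that follow (SE 0.13, edgeR adjusted p = 0.0450), and the call was lost without any 1 of 10 of the 14 libraries (inhibitor replicates 1, 3, 4, 5 and 8 and control replicates 1, 4, 5, 7 and 8), at adjusted p-values of up to 0.128. Ddx23, the U5 helicase that displaces U1, had 18.7 to 40.8 CPM (median 37.0) against 14.2 to 29.9 (median 21.5) and was not called (log2 fold change 0.54, edgeR adjusted p = 0.10), except without inhibitor replicate 7.

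Among the U2 proteins, Sf3a3 had 76.0 to 124 CPM (median 90.7) in c-Myc inhibitor embryos and 105 to 153 (median 122) in controls, and fell by 0.40 (SE 0.11, edgeR adjusted p = 0.0161). Sf3b4, a small RNA-binding subunit that touches the branch site region, fell by 0.73 (SE 0.20, edgeR adjusted p = 0.0194), with 11.5 to 25.5 CPM (median 16.7) against 18.8 to 44.0 (median 27.9). The ranges of both overlapped. The call on Sf3b4 was lost without control replicate 6, the highest library. The other 10 proteins of U2 and the U2AF factors, which read the intron's 3′ end, did not pass, with log2 fold changes from -0.24 to 0.35. No gene of the Sm ring, of U1 or of the LSm ring was called. Their fold changes spanned -0.93 to 1.27 on the log2 scale, and both ends belonged to LSm genes under 7 CPM in every library of this series.

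Among factors that load and activate the tri-snRNP, Prpf3, which holds U4 and U6 together, had 66.7 to 93.9 CPM (median 87.1) in c-Myc inhibitor embryos and 98.6 to 124 (median 109.8) in controls. All treated libraries lay below all controls, and Prpf3 fell by 0.38 (SE 0.10, edgeR adjusted p = 0.0118). Both activation factors fell. Prpf38b had 187 to 283 CPM (median 247) against 259 to 384 (median 308), a fall of 0.43 (SE 0.10, edgeR adjusted p = 0.00746). Prpf38a had 103 to 130.1 CPM (median 118) against 124 to 168 (median 142), a fall of 0.30 (edgeR adjusted p = 0.0296) whose call was lost without any 1 of 5 libraries (control replicates 4, 5 and 7 and inhibitor replicates 7 and 8). In both the highest treated libraries reached into the range of the controls. Prpf4, the partner of Prpf3, was low in every library, at 7.57 to 13.3 CPM (median 10.7) against 9.88 to 28.3 (median 14.3), and was not called (log2 fold change -0.45, edgeR adjusted p = 0.320).

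Of 7 genes of the Prp19-related complex, Crnkl1 was the 1 that passed. It had 696 to 1061 CPM (median 803) in c-Myc inhibitor embryos and 869.7 to 1377 (median 1162) in controls, and fell to 835 ± 129 CPM against 1141 ± 173 (SD, n = 7 each; log2 fold change -0.44, SE 0.10, edgeR adjusted p = 0.00406). Cdc5l, a Myb-like protein of the same complex, could not be compared well: it had 2.04 to 37.4 CPM (median 27.3) against 1.03 to 149 (median 8.33), and its log2 fold change of -0.82 had an SE of 0.76 and turned to 0.27 without control replicate 4 and to 0.34 with limma voom. Among the helicases, Ddx46, which proofreads U2 on the branch site, had 361 to 487 CPM (median 436) against 430.4 to 560.2 (median 525). It fell by 0.27 (SE 0.08, edgeR adjusted p = 0.0224), a call that was lost without any 1 of 3 libraries (control replicates 5 and 7 and inhibitor replicate 7). The second-step factors Prpf18 and Cdc40 were not called.

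**Figure D2:**
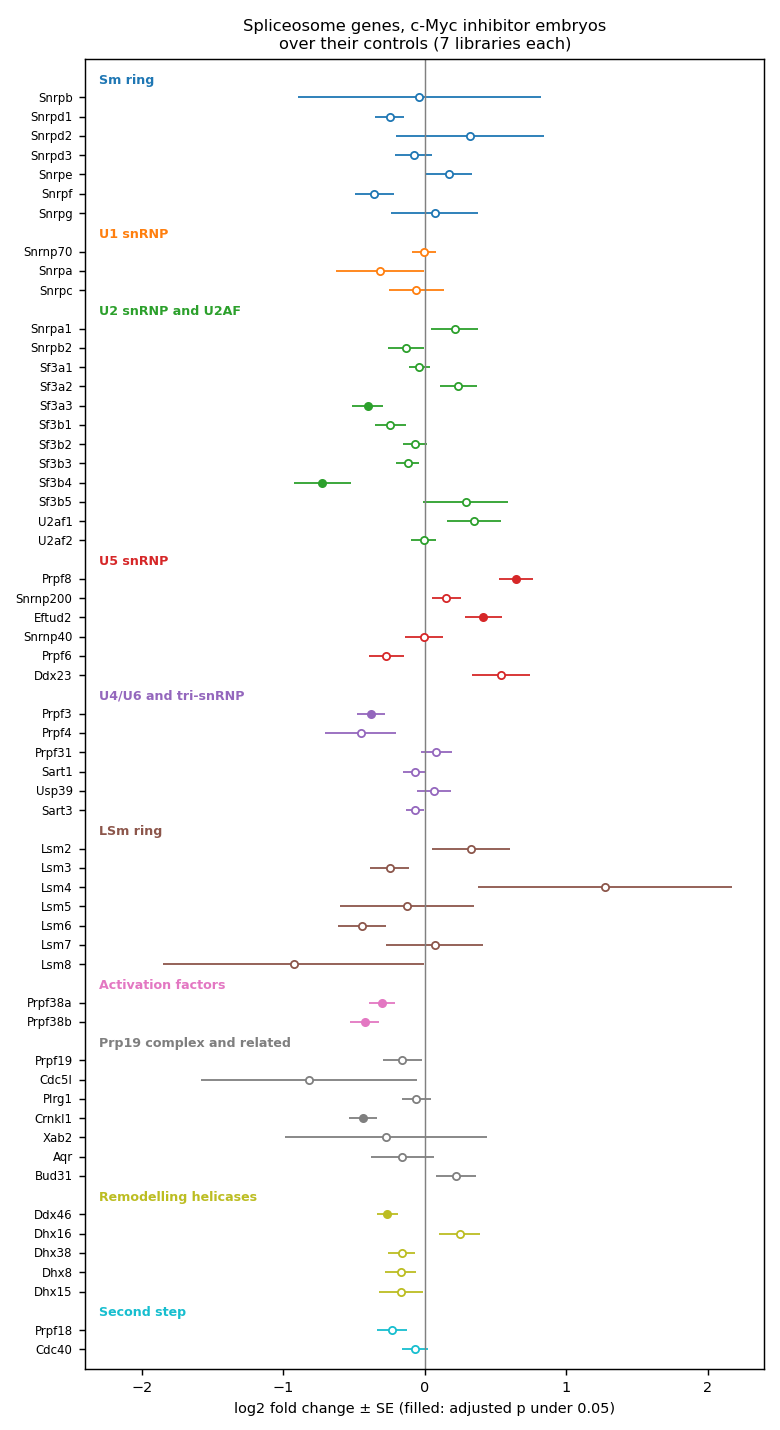
Log2 fold change of each spliceosome gene in c-Myc inhibitor embryos over their controls (point, ± SE, 7 libraries a group), by role, filled where the edgeR adjusted p was under 0.05. Filled points above 0 are Prpf8 and Eftud2 of the U5 snRNP, and the 7 filled points below 0 belong to 5 other roles.

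The calls differ in how firmly they stand. Crnkl1 and Prpf8 kept their calls without any 1 of the 14 libraries and in all 6 other settings tried, among them DESeq2, limma voom and 1 fit of all 26 libraries. Prpf3, Prpf38b and Sf3a3 kept theirs without any 1 library, but all of them lost it in the fit of all 26 libraries. Prpf38b, Sf3a3 and Sf3b4 lost theirs in that fit and with the replicate number as a block. Ddx46 and Prpf38a lost theirs in these settings and without the filter on low counts. Eftud2 lost its call in that fit, with the block and with RLE scaling. In the fit of all 26 libraries, where the wider spread of the other series enters, 1 spliceosome gene rose and 1 fell. Of all 16319 genes tested in that fit, 266 were called higher under the c-Myc inhibitor and 115 lower. Transcripts of the oocyte moved in the same comparison: 6 of 10 oocyte markers rose while 0 fell, and the markers summed to 7382 to 8961 CPM in c-Myc inhibitor embryos against 4437 to 5949 in controls. The sperm marker sum was 345 to 564 CPM against 258 to 367, nearly all of it Odf2, which averaged 212 CPM in MII oocytes as well. The part of these in the changes above was not tested.

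The second comparison asks what blocking RNA polymerase II did. By the main test 0 of 57 spliceosome genes were called between alpha-amanitin embryos and their controls, and of 13133 genes tested 0.0305% were called, 0.0228% higher and 0.00761% lower. At an unadjusted p under 0.05 there were 4 spliceosome genes (7.02%) and 986 genes in all (7.51%). DESeq2 called 1 of 57, Prpf8, where it called 91 higher and 32 lower of all 13133 genes. Log2 fold changes of the 57 lay on both sides of 0, with 29 above and 28 below and a median of 0.04, against -0.01 for all genes tested. With 4 libraries a group and this spread, 20% of genes simulated with a log2 change of 1 and 48% of those with 2 were called. Most changes of the smaller size would thus be missed among such genes. They were drawn from all genes averaging over 10 CPM, so the shares for the spliceosome genes may differ. The oocyte markers summed to 5709 ± 962 CPM in alpha-amanitin embryos against 5073 ± 407 in their controls (SD, n = 4 each), and their part in the values below was not tested.

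Prpf8 had 247, 199, 260.0 and 162 CPM in alpha-amanitin embryos and 123, 130.2, 98.6 and 78.1 CPM in their controls. The groups did not overlap, and the mean was 217 ± 44.8 CPM against 107.5 ± 23.8 (SD, n = 4 each). Its log2 fold change was 1.03 (SE 0.19, 95% interval 0.67 to 1.40; edgeR adjusted p = 0.0635). The call depended on the method: the adjusted p was 0.000108 with DESeq2, 0.00150 without the filter on low counts and 0.00383 in 1 fit of all libraries, and 0.0660 to 0.309 in the other 11 settings.

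Other members with large differences were low and variable. Snrpa, the U1 protein that grips a stem-loop of U1 RNA, had 13.2, 25.3, 35.5 and 19.4 CPM in alpha-amanitin embryos and 10.5, 11.6, 2.85 and 19.0 in controls. The ranges overlapped (log2 fold change 1.10, SE 0.68, edgeR adjusted p = 0.874). U2af1, which reads the last bases of the intron, had 18.9, 26.4, 21.5 and 16.3 CPM against 9.67, 3.68, 23.7 and 1.36, where 1 control library lay within the treated ones (log2 fold change 1.12, SE 0.72). Ddx23 had 24.6, 30.8, 0 and 12.4 CPM against 11.3, 1.89, 14.4 and 4.09. Its 0 stands in the shallowest library, where 3 counts are 0.551 CPM.

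The Sm genes lay mostly below 0, with 6 of 7 lower in alpha-amanitin embryos, and 0 passed the edgeR test, with 1 at an unadjusted p under 0.05. Snrpf, a member of the ring, had 117, 142, 88.2 and 75.6 CPM against 223, 106, 147 and 168 (log2 fold change -0.58, edgeR adjusted p = 0.811). Snrpd1, another, had 151, 169, 210.0 and 179.8 CPM against 321, 154, 238 and 296 (log2 fold change -0.49, edgeR adjusted p = 0.606). Cdc5l had 14.5, 18.4, 0 and 23.2 CPM against 47.8, 8.30, 65.6 and 20.6, again with overlap.

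The third comparison asks what changed between the oocyte and the 10 h embryo. Prpf8 fell to 107.5 ± 23.8 CPM in control embryos against 571 ± 24.2 in MII oocytes, while Snrpf and Ddx46 rose. These were the 3 calls among 57 spliceosome genes: 2 rose and 1 fell (3.51 and 1.75%), where 2.89% of 13133 genes tested were called, 1.11% higher and 1.78% lower. The members' median log2 fold change was -0.07, against -0.03 for all genes. At an unadjusted edgeR p under 0.05 there were 17 spliceosome genes (29.8%), beside 14.1% of all genes. Oocyte markers moved as well, with 6 of 10 lower in control embryos and a summed level of 4572 to 5526 CPM against 8355 to 9345 in oocytes; their part in these results was not tested.

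Prpf8 had 123, 130.2, 98.6 and 78.1 CPM in control embryos and 547, 577, 557 and 602 CPM in oocytes. The lowest oocyte library lay far above the highest embryo library. The log2 fold change was -2.42 (SE 0.19, edgeR adjusted p = 2.84e-07), the lowest adjusted p among the 57. Eftud2, its neighbour in U5, did not pass: it had 41.0, 38.2, 74.4 and 55.7 CPM in control embryos against 113, 126, 88.1 and 105 in oocytes, with no overlap (log2 fold change -1.05, SE 0.29, edgeR adjusted p = 0.0568). The 6 U5 genes summed to 689 ± 47.6 CPM in control embryos and 1214 ± 85.7 in oocytes (SD, n = 4 each), and Prpf8 held most of that difference.

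Snrpf (chromosome 10, 93583029 to 93589706) had 223, 106, 147 and 168 CPM in control embryos and 33.2, 73.5, 25.0 and 44.6 CPM in oocytes, with no overlap. It rose 3.62-fold (log2 fold change 1.86, SE 0.34, edgeR adjusted p = 0.00316). The ring as a whole summed to 561 ± 107 CPM in control embryos and 303 ± 49.5 in oocytes. Snrpd3, also of the ring, had 87.1, 98.2, 105 and 74.3 CPM against 48.5, 55.4, 56.6 and 34.2 and did not pass (log2 fold change 0.89, edgeR adjusted p = 0.130), though it did with DESeq2 and in the fit of all 26 libraries (0.00822 to 0.380 over 14 other settings). Ccdc38, on the other strand across Snrpf, had 25.2% as many counts as Snrpf, and no source used here gives the strand setting of the counting, so reads of the pair cannot be told apart. Sm genes can also share reads with near-identical processed copies.

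Ddx46 (chromosome 13, 55635027 to 55681256) had 461, 332, 354 and 296 CPM in control embryos and 206, 244, 235 and 194 CPM in oocytes. The groups did not overlap, and it rose by 0.70 (SE 0.17, edgeR adjusted p = 0.0222). Its call was lost without any 1 of 4 of the 8 libraries (MII replicates 1, 3 and 4 and control replicate 1), while Snrpf and Prpf8 kept theirs without any 1. The remaining members named by size were low or scattered. U2af1 had 9.67, 3.68, 23.7 and 1.36 CPM against 35.8, 46.3, 41.9 and 29.6 and was not called (edgeR adjusted p = 0.180). Without control replicate 3 it passed (edgeR adjusted p = 0.0463), and 4 spliceosome genes fell in place of 1, where 1.55% of all genes fell. It also passed in the fit of all 26 libraries, and over its 14 other settings the adjusted p ran from 0.00907 to 0.356. Sf3b5, a small U2 subunit, had 0, 1.68, 20.9 and 0 CPM against 27.1, 30.3, 39.0 and 19.5 (log2 fold change -2.36, SE 1.57), and of 14 other settings it passed with limma voom. Cdc5l had 47.8, 8.30, 65.6 and 20.6 CPM against 14.7, 14.2, 6.20 and 1.28, where 1 embryo library lay among the oocytes (log2 fold change 1.96, SE 1.07).

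Against the same oocytes, alpha-amanitin embryos gave 2 calls, Ddx46 higher and Prpf8 lower (1.75% each), where 1.71% of all genes tested were called, 0.442% higher and 1.27% lower. At an unadjusted edgeR p under 0.05 there were 10 spliceosome genes (17.5%), beside 10.6% of all genes. Prpf8 was at 217 ± 44.8 CPM against 571 ± 24.2, or -1.39 on the log2 scale (SE 0.19, edgeR adjusted p = 0.000209), beside the -2.42 of control embryos. Ddx46 had 316, 341, 401 and 333 CPM in alpha-amanitin embryos against 206, 244, 235 and 194 in oocytes, a rise of 0.67 (SE 0.17, edgeR adjusted p = 0.0448) whose call was lost without any 1 of the 8 libraries. Snrpf was at 1.27 (SE 0.33, edgeR adjusted p = 0.0606) and missed the threshold, but passed in 6 of 14 other settings, among them DESeq2 and leaving out MII replicate 2 or alpha-amanitin replicate 3. Over these settings the adjusted p ran from 0.00306 to 0.214. Dhx38, the helicase that prepares the second step, had 131, 132, 169 and 127 CPM against 53.6, 87.9, 58.9 and 94.2 with no overlap (log2 fold change 0.93, edgeR adjusted p = 0.0961). It passed with DESeq2, limma voom and the fit of all 26 libraries, and over its 14 other settings the adjusted p ran from 0.00311 to 0.312. Snrnp70, the U1 protein that bridges to other splicing factors, had 179, 146, 419 and 179 CPM against 119, 158, 88.2 and 189, with overlap (log2 fold change 0.74, SE 0.29). Without alpha-amanitin replicate 3, its highest library, the value was 0.29, and it passed in the fit of all 26 libraries alone of 14 other settings. Bud31, of the Prp19-related group, had 67.8, 68.4, 31.4 and 68.9 CPM against 129.7, 115, 124 and 91.1, and every alpha-amanitin library lay below every oocyte library without a call (log2 fold change -0.95, edgeR adjusted p = 0.352). Sf3b5 had 5.28, 16.6, 0 and 3.27 CPM against 27.1, 30.3, 39.0 and 19.5 (log2 fold change -2.19, SE 1.56). Of the oocyte markers 5 of 10 were lower in alpha-amanitin embryos than in oocytes, and their part was not tested. The 3 comparisons of this series share libraries pairwise, so they are not independent of each other.

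**Figure D3:**
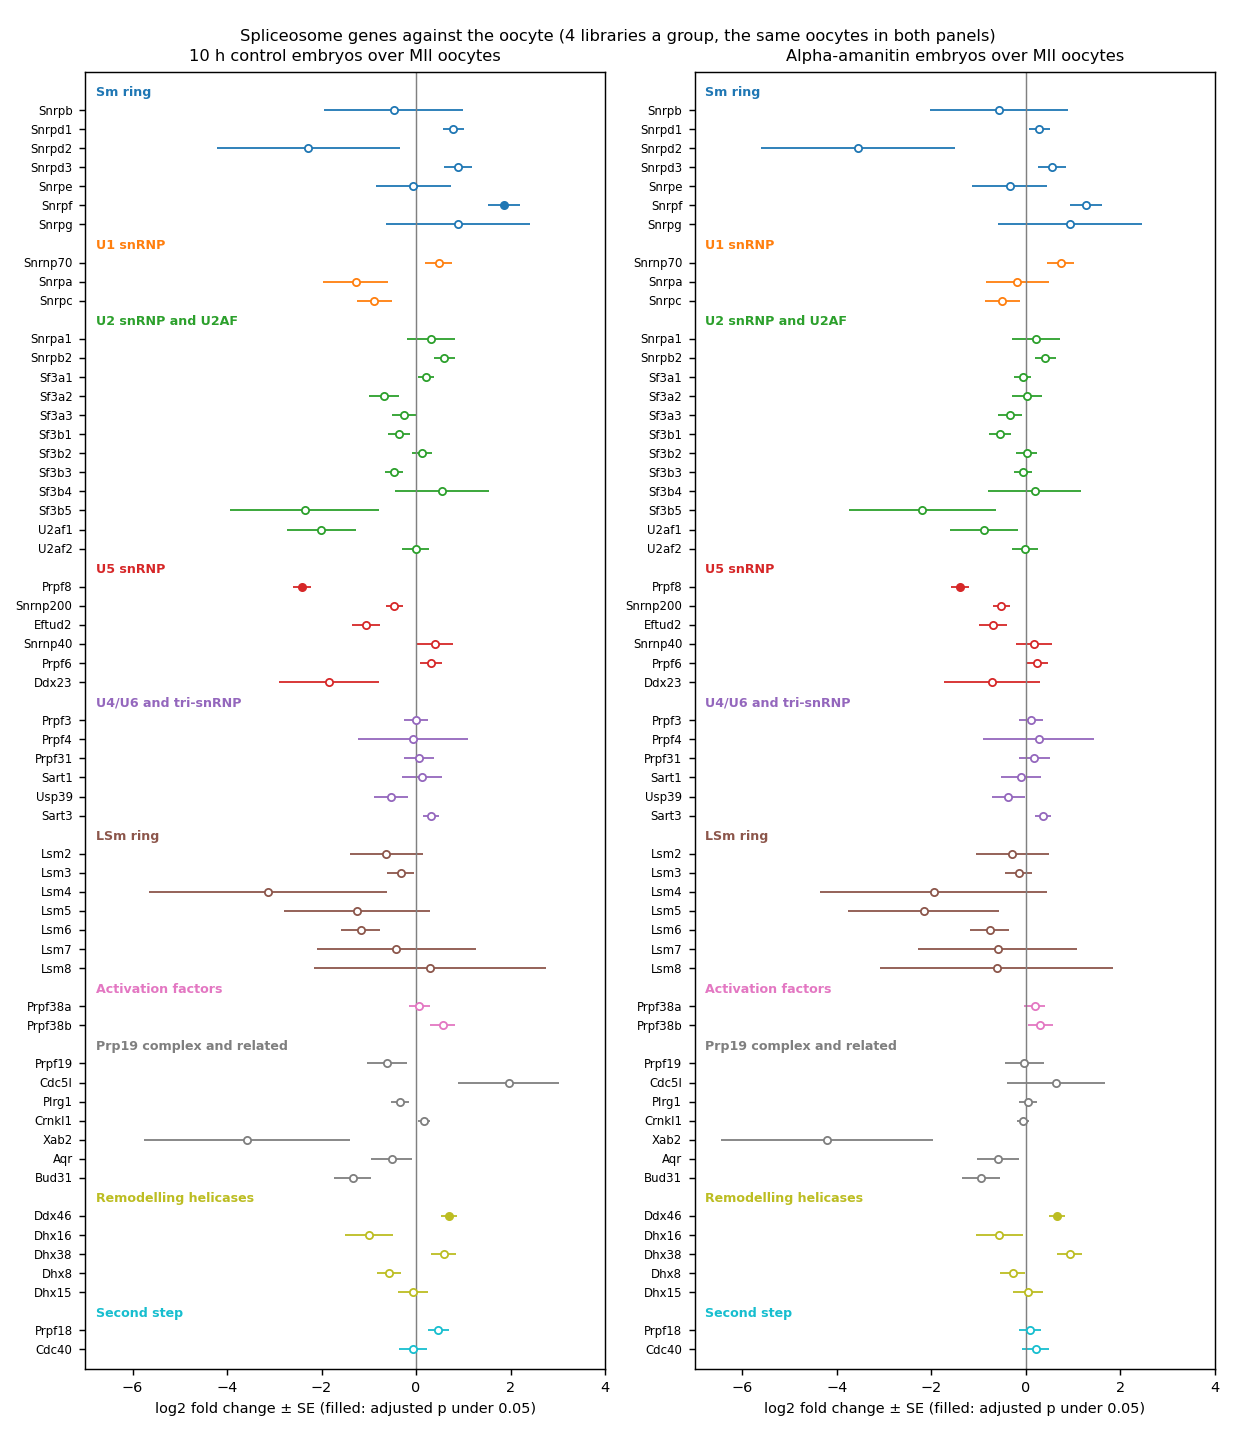
Log2 fold change of each spliceosome gene over MII oocytes (point, ± SE), in control embryos at left and alpha-amanitin embryos at right, 4 libraries a group, filled where the edgeR adjusted p was under 0.05. Prpf8 is filled below 0 in both panels, at -2.42 and -1.39, and Ddx46 is filled above 0 in both.

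**Figure D4:**
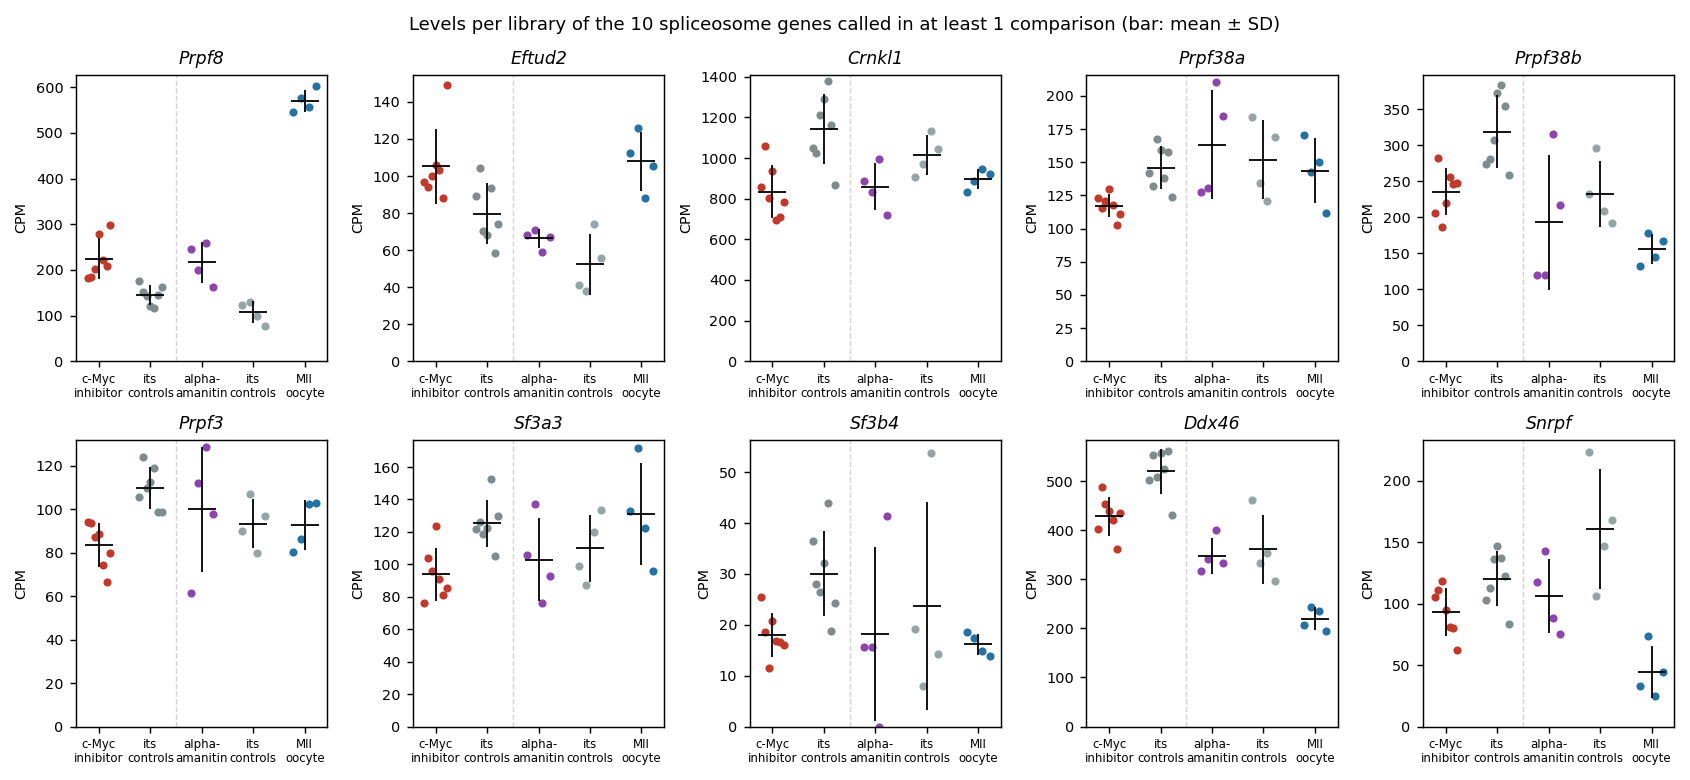
CPM of the 10 spliceosome genes called in at least 1 comparison, 1 point per library, with mean ± SD, for the 5 groups. Prpf8 is highest in MII oocytes (571 CPM), lies between in both treated groups (225 and 217 CPM) and is lowest in both control groups (145 and 107.5 CPM).

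The difference between the effects of the c-Myc inhibitor and alpha-amanitin, each against its own controls, was tested in 1 fit of the 22 embryo libraries. Of 57 spliceosome genes 0 were called, where 1.04% of 15790 genes tested were called, 0.678% higher and 0.367% lower. In data simulated for this test, 14% of genes with a log2 change of 1 and 52% of those with 2 were called. Most differences of the smaller size would thus be missed. At an unadjusted p under 0.05 there were 6 spliceosome genes (10.5%), beside 17.3% of all genes. DESeq2 called 1 of 57 lower, where it called 413 higher and 629 lower of all 15790 genes. That gene was Sf3b3, a U2 scaffold protein chosen for mention after its values were seen (edgeR log2 difference -0.52, adjusted p = 0.140). For Prpf8 the difference was -0.38 (95% interval -0.85 to 0.09, edgeR adjusted p = 0.448), an interval that holds 0. Among members averaging 10 CPM or more, the largest differences were -1.41 for Snrpa (SE 0.69), -0.84 for Lsm6 and -0.80 for Prpf4 below 0, and 0.50 for Cdc5l, 0.46 for Snrpe and 0.33 for Snrpa1 above 0, the last of which turned to -0.11 without control replicate 3 of the alpha-amanitin series. Snrpa had 6.44 to 31.6 CPM (median 18.2) in c-Myc inhibitor embryos against 13.3 to 35.1 (median 22.3) in their controls, beside the alpha-amanitin values given above, and the ranges overlapped in both series. Lsm6, of the ring on U6, had 19.1 to 35.4 CPM (median 25.8) against 24.1 to 50.8 (median 35.3), and in the alpha-amanitin series 30.4, 44.4, 32.3 and 35.8 against 26.9, 19.3, 42.5 and 20.6. These members were low and their libraries scattered. The control groups of these series were not compared by a test. For the 45 spliceosome genes with at least 10 CPM in both, alpha-amanitin control means were divided by c-Myc inhibitor control means. The ratio ran from 0.479 for Snrpa to 2.31 for Snrpd1, at 252 against 109 CPM.

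The c-Myc inhibitor comparison shares no library with the comparison of control embryos and oocytes, so the same genes can be set side by side. Prpf8, with the lowest adjusted p among the 57 in both, was higher with the inhibitor and lower in embryos than in oocytes, and Ddx46 was lower with the inhibitor and higher in embryos than in oocytes. Across the 57 genes the log2 fold changes had a Pearson correlation of -0.59 and a Spearman correlation of -0.47, and 35 genes (61.4%) had opposite signs. Over all 12280 genes tested in both, the correlations were -0.20 and -0.23 and 58.5% had opposite signs; among the 7271 with a mean of at least 10 CPM in both they were -0.48 and -0.34, beside -0.64 and -0.49 for the 47 spliceosome genes at that level. Genes are not independent replicates, and these are descriptions. With the alpha-amanitin effect, which also shares no library with the c-Myc inhibitor comparison, the correlations over the 57 genes were 0.54 and 0.40, with 21 of opposite sign (36.8%), beside 0.03 and 0.03 over all 12280 genes, of which 48.2% had opposite signs.

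**Figure D5:**
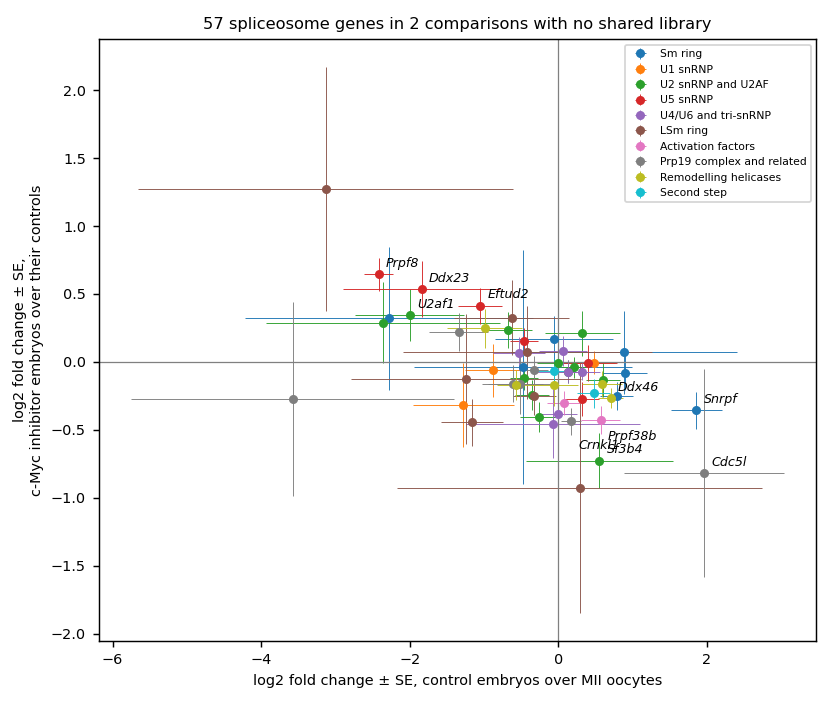
Log2 fold change (± SE) of each of the 57 spliceosome genes in c-Myc inhibitor embryos over their controls (vertical) against that in control embryos over MII oocytes (horizontal), coloured by role. Prpf8, Ddx23, Eftud2 and U2af1 lie at upper left and Snrpf, Ddx46, Prpf38b and Cdc5l at lower right, and 35 of 57 genes have opposite signs.

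Further splicing factors outside the 57 were read from 8 lists: other U1, U2 and tri-snRNP proteins, other proteins of the B, Bact and C complexes, the exon junction complex, SR proteins and their kinases, hnRNP proteins, the SMN and PRMT5 snRNP assembly factors, the minor spliceosome and spliceosomal small nuclear RNAs. Of the 11 small nuclear RNAs listed, 9 were in the count table. Only 2 passed the filter on low counts in the c-Myc inhibitor comparison and in those of the alpha-amanitin series, so the others were not tested there. Under the c-Myc inhibitor 6 of 144 tested genes rose and 17 fell (4.17 and 11.8%), beside 6.82 and 4.08% of all genes. Among other snRNP proteins 2 of 26 rose and 5 fell: Puf60, which helps U2AF, by 1.18 (edgeR adjusted p = 0.00362) and Cherp by 0.47 rose, and Luc7l3, a U1 associate, fell by 0.57 (edgeR adjusted p = 0.000239). Of 28 hnRNP genes 1 rose, Pcbp2 (0.62), and 4 fell, among them Hnrnpa1 (-0.60) and Ptbp3 (-0.58). Of 18 SR genes and kinases 1 rose, Srsf4 (0.49), and 2 fell, the kinases Clk1 (-0.58) and Srpk2 (-0.30). Of 35 proteins of later complexes 4 fell, including Ik (-0.37), Slu7 (-0.38) and Ppwd1 (-0.49). The exon junction protein Rbm8a fell by 0.57, the assembly factor Gemin7 rose by 0.41, and of the minor spliceosome Armc7 rose by 0.69 and Rbm48 fell by 0.40.

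Between alpha-amanitin embryos and their controls 0 of 143 such genes were called by edgeR. Between control embryos and oocytes 3 of 143 rose and 3 fell (2.10% each), beside 1.11 and 1.78% of all genes. Magoh, a core of the exon junction complex, rose to 419 ± 88.6 CPM against 227 ± 24.8 (SD, n = 4 each; log2 fold change 0.87, edgeR adjusted p = 0.00543), and Snrnp27 and Zmat2, of the tri-snRNP and B complex, rose by 0.79 and 0.98. Smu1, which acts in spliceosome activation, fell to 142 ± 43.6 CPM against 388 ± 3.57, by 1.46 on the log2 scale (edgeR adjusted p = 0.000529), Puf60 fell by 1.95 and Pcbp2 by 1.10. Puf60 and Pcbp2 rose under the c-Myc inhibitor. Against the same oocytes, alpha-amanitin embryos were higher in Zmat2 (1.43) and lower in Puf60 (-1.70) and Smu1 (-1.02).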

How the data were processed

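Total RNA was sequenced from 26 libraries after a SMARTer Pico Input v2 library kit that keeps strand and takes total RNA, per the labels' protocols. Cutadapt 1.7.1, STAR 2.5.0a and GRCm38 are named in the submitters' processing notes. The authors deposited raw counts per Ensembl gene. No source used here names the program that counted, how it treated strand or which annotation it read. Of the 57 genes 23 overlap another gene on the genome, and for 8 of them (Prpf6, Xab2, Snrpf, Sf3a2, Cdc5l, Sf3b3, Bud31 and Snrpa) an overlapping gene on the other strand had over 10% as many counts.

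Counts were tested with edgeR 4.0.16 (R 4.3.3; TMM, filterByExpr with a minimum count of 10 and a minimum total of 15, quasi-likelihood F-test, Benjamini-Hochberg over all genes tested, threshold 0.05). The c-Myc inhibitor comparison used its 14 libraries, the 3 comparisons of the alpha-amanitin series shared a fit of 12, and the difference of effects used 22. Alternatives were DESeq2 1.42.0, limma 3.58.1 voom, RLE scaling, no filter, the replicate number as a block, 1 fit of all 26 libraries, and leaving out each library. The fits were tested on simulated data. Per-library values are given for each called gene and, per comparison, for the 3 largest rises and 3 largest falls among those averaging 10 CPM or more, except that for the difference of effects Snrpe and Snrpa1 have only the difference. Per length, the 3 highest and 3 lowest in oocytes are named, and up to 3 called genes per other list and comparison. The members and lists were chosen with earlier results of these data known. Intervals for shares cover counting error only. No libraries were found to be duplicates, the lowest chi-square per degree of freedom between replicates being 32.8.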

Additional observations from a re-analysis of the deposited data

Results flagged for a closer look

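Of 55 groups of values tested for a sample far from the others, 1 stood out. Eftud2 was at 149 CPM in c-Myc inhibitor replicate 8, while the other 6 inhibitor libraries had 88.1 to 105.8 CPM, a gap of 0.709 of the group's range. Chance flags about 1 in 20 such groups. Without that library Eftud2 was no longer called in the c-Myc inhibitor comparison, and the cause was not tested.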

How the results depend on the processing

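Over the 40 named fold changes and 730 alternatives, 659 kept direction and side of the threshold, 49 lost the call, 19 gained it and 3 changed direction. These 3 were uncalled values: Cdc5l in the c-Myc inhibitor comparison (-0.82), at 0.34 with limma voom and 0.27 without control replicate 4 (-1.04 to 0.27 with 1 library left out), and Snrpa1 in the difference of effects (0.33), at -0.11 without control replicate 3 of the alpha-amanitin series (-0.11 to 0.64 with 1 library left out). Of 26 uncalled values, 12 moved by over 1.5 times without some 1 library. In the c-Myc inhibitor comparison the 2 spliceosome genes that rose became 1 with RLE scaling, with the replicate block and in 1 fit of all 26 libraries, and 1 to 3 when 1 library was left out. The 7 that fell became 2 with the replicate block and 1 in the fit of 26, and 5 to 8 with 1 library left out. For alpha-amanitin embryos against their controls, DESeq2, no filter and the fit of 26 each called 1 higher. For control embryos against oocytes, 2 higher became 4 with DESeq2 and 5 in the fit of 26 (1 to 3 with 1 library left out), and 1 lower became 3 with DESeq2, 6 with limma voom, 2 with no filter and 6 in the fit of 26 (1 to 4 with 1 left out). For alpha-amanitin embryos against oocytes, 1 higher became 3 with DESeq2, 3 with limma voom, 0 with the replicate block and 4 in the fit of 26 (0 to 1 with 1 left out), and 1 lower became 2 with limma voom and 2 in the fit of 26. For the difference of effects DESeq2 called 1 lower. The causes were not tested.

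Same-numbered libraries did not deviate together (correlations of -0.04 to 0.07 over 6 pairs in the c-Myc inhibitor series, and -0.04 to 0.05 in the alpha-amanitin series), and in each pair of groups 1 library correlated best with its own number. These values cannot tell whether same-numbered libraries were collected or processed together, and the main test did not pair them. With the replicate block, Crnkl1, Prpf3 and Prpf8 were still called in the c-Myc inhibitor comparison.

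Over all genes, the c-Myc inhibitor counts of 887 higher and 531 lower became 266 and 115 in the fit of 26, and 701 and 291 with the replicate block. For alpha-amanitin against controls 3 and 1 became 91 and 32 with DESeq2, 74 and 15 with no filter, 63 and 40 in the fit of 26, 3 and 7 with limma voom and 0 and 0 with the block. For control embryos against oocytes 146 and 234 became 285 and 484 with DESeq2, 280 and 660 with limma voom, 175 and 314 with no filter, and 572 and 837 in the fit of 26. For alpha-amanitin embryos against oocytes 58 and 167 became 187 and 300 with DESeq2, 141 and 401 with limma voom, 186 and 286 with no filter, 40 and 152 with the block, and 329 and 530 in the fit of 26. For the difference of effects 107 and 58 became 413 and 629 with DESeq2, 234 and 209 with no filter, 41 and 3 with the block, and 155 and 90 in the fit of 26. With 1 library left out, the c-Myc inhibitor counts ran from 764 to 909 and 390 to 569, and those for alpha-amanitin against controls from 0 to 3 and at 0. For control embryos against oocytes they ran from 64 to 122 and 152 to 229, lowest in both directions without MII replicate 1, and for alpha-amanitin embryos against oocytes from 23 to 83 and 98 to 245. For the difference of effects they ran from 79 to 173 and 28 to 109, highest in both directions without alpha-amanitin replicate 3. Limma voom moved the median of all genes to -0.31 for control embryos and -0.23 for alpha-amanitin embryos against oocytes, and the block moved it to -0.20 in both. With no filter it was 0.21 for alpha-amanitin against controls, 0.20 against oocytes and -0.53 for the difference of effects. With 100 bases before the start, 3.85% of the spliceosome windows and 3.17% of all windows held CACGTG. Counted by gene, that was 1 of 44 beside 999 of 27025. The shallowest library, alpha-amanitin replicate 3, had counts for 45 of 57 spliceosome genes, which limits what can be said of the low ones.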
